A study of Mus musculus with 12 samples.

Results

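The genes described here belong to 9 families of transcription factors: Dlx, Emx, Lhx, Meis, Neurod, Nr2f, Pou, Sox and Zic. The families hold genes that pattern the embryonic forebrain and that mature neurons and glia go on expressing. Membership went by name alone, so factors of other tissues are included, such as Dlx3 of skin, teeth and placenta. A gene was a member if the array annotation gave its probe set a single symbol made of a family name and a number (for Pou, a digit, f and a digit), and 5 such genes were left out by the rule (Lhx9, Dlx1, Pou3f1, Sox17 and Sox18). This gave 55 genes of the 18193 named on the array: 17 Sox, 10 Pou, 7 Lhx, 5 Dlx, 4 Neurod, 4 Zic, 3 Meis, 3 Nr2f and 2 Emx genes. They were measured by 121 probe sets, and each gene was read from its probe set with the highest mean over the 12 arrays. The signal of 18 members was below the median of all probe sets (5.89 on the log2 scale) in every group mean. These 18 are called dim below. They stayed in every test and count.

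Prefrontal cortex and hippocampus came from adult female mice aged 38 to 40 weeks, and each tissue sample was hybridised to 1 expression array. The labels name a C57BL/6 background reached by 6 generations of back-crossing. All mice lacked APLP2, which belongs to the same protein family as APP, the source of the amyloid peptide. The APLP2-KO mice (APLP2-/-) were compared with APPsα-DM mice (APPα/αAPLP2-/-), whose edited App allele, as it is generally described, yields only the secreted ectodomain APPsα. There were 3 mice per genotype and hence 3 arrays in each of 4 groups, 1 for each tissue of each genotype. No wild-type mouse was analysed here, so the loss of APLP2 itself could not be assessed. The labels do not say which cortex and hippocampus came from the same mouse.

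In the embryo, genes of these families divide the forebrain into territories. Emx and Lhx2 mark the cortical primordium, Dlx, Lhx6 and Lhx8 the ganglionic eminences below it, which give rise to striatum and inhibitory interneurons, and Nr2f genes form gradients along the cortical sheet. Neurod factors then act in excitatory neurons, Meis proteins are homeodomain partners of Pbx, Pou factors carry a double DNA-binding domain, Sox factors act in neural stem cells, neurons and glia, and Zic factors are zinc-finger proteins of the midline, cerebellum and meninges. In adult tissue their transcripts also serve as marks of cell type and region.

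The arrays matched their tissue labels: 5 of 5 dentate granule cell genes and 6 of 6 hippocampal pyramidal cell genes were higher in hippocampus in both genotypes, and 5 of 7 genes of cortical projection neurons were lower there in both. The other 2 lay toward hippocampus, by up to 0.43 log2 units in APLP2-KO, where 1 passed, and 0.42 in APPsα-DM. The probe set of App with the highest signal read 13.38 to 13.50 in the 6 APLP2-KO arrays and 11.46 to 11.83 in the 6 APPsα-DM arrays. A second App probe set read 12.49 to 12.77 and 7.70 to 8.20, so the size of the App difference depends on the probe set. The remaining App probe sets read at most 3.44 in any array. The probe set of Aplp2 with the highest signal read 9.84 to 10.15 over all 12 arrays of the same Aplp2 genotype. That signal does not show the loss of APLP2: no array here has an intact Aplp2 to set beside it, and whether these probes lie outside the deleted part is not known here. Markers of neighbouring tissue differed between arrays. The mean log2 signal of 13 genes of striatal neurons was 8.51 to 9.20 in cortex and 6.64 to 6.98 in hippocampus. It was highest in APPsα-DM cortex array 3. Choroid plexus genes were raised in APPsα-DM cortex array 2 (mean log2 signal 7.66) and APLP2-KO cortex array 3 (7.16), against 4.77 to 4.94 in the other 4 cortex arrays, and spanned 5.49 to 8.72 in hippocampus. Genes of leptomeninges and fibroblasts reached 8.98 in APPsα-DM hippocampus array 1 and 7.30 to 7.90 elsewhere. In tissue of mixed cells, fewer cells of a type and less RNA per cell cannot be told apart.

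Tissue was what separated the members. Of the 55, 16 passed an adjusted p of 0.05 between hippocampus and cortex of APLP2-KO mice (limma, adjusted over 45037 probe sets), where 16.5% of all named genes passed. Among the 16, 5 were higher in hippocampus (6.78% of all genes) and 11 lower (9.70% of all genes). In APPsα-DM mice 15 members passed, against 13.9% of all genes, with 6 higher (6.59% of all genes) and 9 lower (7.34%). In both genotypes and in the same direction, 12 of the 55 passed, or 21.8% of the members against 11.4% of all genes. Neurod1, Neurod2, Neurod6, Nr2f2 and Lhx2 were higher in hippocampus, and Meis1, Meis2, Lhx8, Dlx5, Pou3f4, Sox8 and Emx1 were lower. Another 4 members passed in APLP2-KO alone (Pou2f2, Pou3f2, Pou6f1 and Sox5), 3 in APPsα-DM alone (Dlx2, Dlx6 and Emx2), and 36 in neither. Over all 55, the difference had the same sign in both genotypes for 41 members (74.5%), close to the 73.9% of all genes. The median size of the difference was 0.18 on the log2 scale for the members in each genotype and 0.11 for all genes. The 37 members that were not dim accounted for 14 of the 16 calls in APLP2-KO and 14 of the 15 in APPsα-DM. The shares of all genes given here include dim genes, and the share among genes that were not dim was not counted. The 2 genotypes' tissue comparisons share no array, but both use 1 estimate of the spread from all 12 arrays, so their calls are not independent. The count in APLP2-KO depended on single arrays: it fell to 9 without APLP2-KO cortex array 2 or APLP2-KO hippocampus array 2, and to 10 without APLP2-KO cortex array 3 or APLP2-KO hippocampus array 3. Choroid plexus genes lay toward hippocampus in both genotypes (medians of 0.69 and 1.62, 0 of 12 passing), and without the 2 cortex arrays of raised choroid plexus signal, an alternative added after the data were seen, 11 members passed in APLP2-KO and 14 in APPsα-DM.

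**Figure D1:**
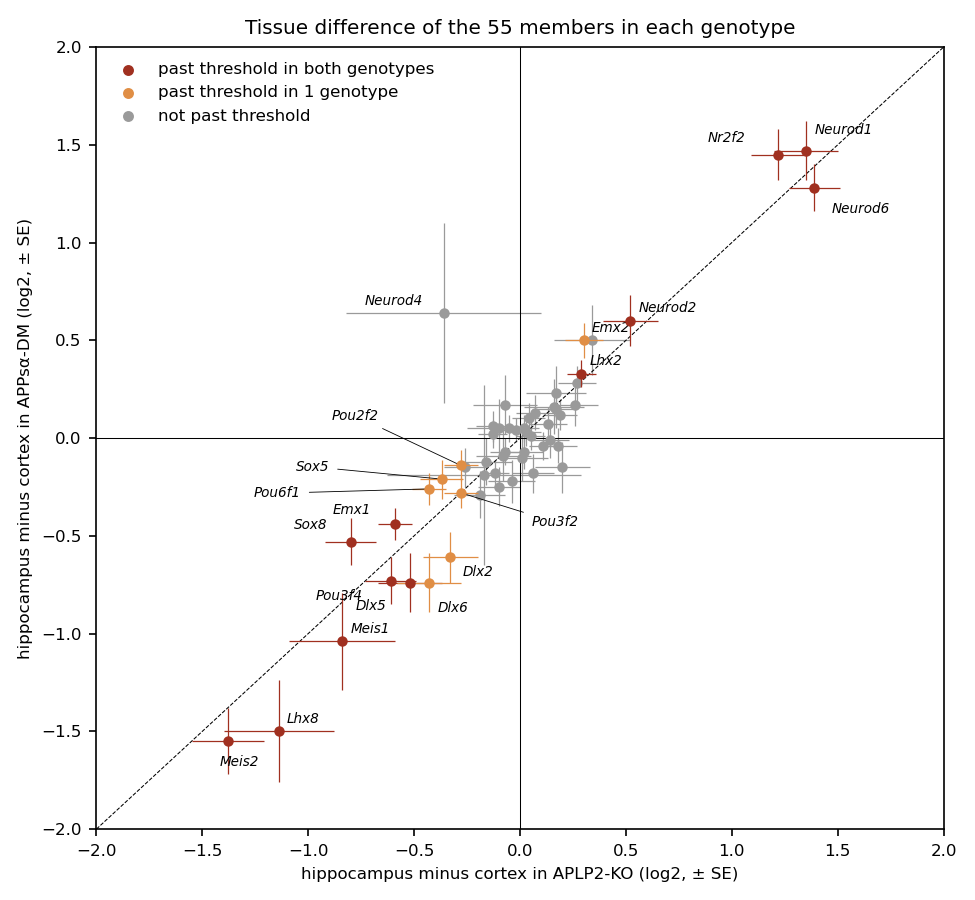
Tissue difference (hippocampus minus cortex, log2, with the SE from limma) of each of the 55 members in APLP2-KO mice on the x axis and in APPsα-DM mice on the y axis, with the line of equal difference dashed. Nr2f2, Neurod1 and Neurod6 lie at the upper right and Meis2 and Lhx8 at the lower left, and Neurod4, which is off the line, has the widest error bars together with Zic1.

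The Neurod genes encode basic helix-loop-helix activators of excitatory neurons. Of the 4 members, 3 were higher in hippocampus in both genotypes, with folds of 2.43 to 2.77 for Neurod1 and Neurod6. Neurod1, which dentate granule cells need to form, read 8.31, 8.47 and 8.32 log2 units in APLP2-KO cortex arrays 1 to 3 and 9.58, 9.61 and 9.97 in APLP2-KO hippocampus. In APPsα-DM it read 8.45, 7.88 and 8.15 in cortex and 9.76, 9.39 and 9.74 in hippocampus. Each hippocampus array was above each cortex array. The difference was 1.35 ± 0.15 (SE; 2.56-fold, adjusted p = 5.72e-05) in APLP2-KO and 1.47 ± 0.15 (2.77-fold, adjusted p = 3.57e-05) in APPsα-DM.

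Neurod6, a marker of cortical and hippocampal pyramidal cells, read 9.49, 9.67 and 9.87 in APLP2-KO cortex and 11.18, 10.93 and 11.08 in APLP2-KO hippocampus. In APPsα-DM it read 9.85, 9.52 and 9.78 in cortex and 10.82, 11.11 and 11.06 in hippocampus. The tissues did not overlap, and the differences were 1.39 ± 0.12 (2.62-fold, adjusted p = 7.79e-06) and 1.28 ± 0.12 (2.43-fold, adjusted p = 1.77e-05). Neurod2, which acts in excitatory neurons of both regions, differed less. It read 9.05, 9.15 and 9.26 in APLP2-KO cortex and 9.51, 9.63 and 9.87 in APLP2-KO hippocampus. In APPsα-DM its values were 9.17, 9.15 and 9.0 in cortex and 9.53, 10.03 and 9.57 in hippocampus. All hippocampus arrays were again above all cortex arrays, by 0.52 ± 0.13 on average in APLP2-KO (1.43-fold, adjusted p = 0.0199) and 0.60 ± 0.13 in APPsα-DM (1.52-fold, adjusted p = 0.00974). The APLP2-KO call of Neurod2 was lost without APLP2-KO cortex array 1 or 2 or APLP2-KO hippocampus array 2 or 3 (adjusted p 0.0504 to 0.0902). Neurod4, the dim member of the family, did not pass in either genotype.

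Since Neurod proteins bind the E-box CANNTG, the 250 bases before the RefSeq start of each of these 3 genes are shown, 5′ to 3′ on the gene's strand, with E-boxes in capitals (GRCm38.p6; Neurod1 at chr2:79456637-79456886, Neurod2 at chr11:98329646-98329895 and Neurod6 at chr6:55681264-55681513, all on the minus strand).
Neurod1: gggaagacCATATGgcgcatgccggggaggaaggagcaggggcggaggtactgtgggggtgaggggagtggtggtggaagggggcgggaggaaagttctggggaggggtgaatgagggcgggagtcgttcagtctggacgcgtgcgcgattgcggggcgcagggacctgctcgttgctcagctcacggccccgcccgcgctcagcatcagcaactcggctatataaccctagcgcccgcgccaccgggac
Neurod2: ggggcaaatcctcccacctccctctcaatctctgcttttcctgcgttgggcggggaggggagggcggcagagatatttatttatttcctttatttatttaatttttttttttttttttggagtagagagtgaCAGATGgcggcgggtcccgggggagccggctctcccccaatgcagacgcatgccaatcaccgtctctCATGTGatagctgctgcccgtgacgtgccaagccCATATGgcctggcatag
Neurod6: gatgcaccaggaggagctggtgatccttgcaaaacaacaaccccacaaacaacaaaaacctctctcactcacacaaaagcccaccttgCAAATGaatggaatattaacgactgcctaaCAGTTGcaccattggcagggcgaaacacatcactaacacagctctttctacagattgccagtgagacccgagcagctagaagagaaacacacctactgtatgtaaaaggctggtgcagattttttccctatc
The motif occurred 1 time before Neurod1, 3 times before Neurod2 and 2 times before Neurod6. It reads the same on both strands. At least 1 copy was present in 66.2% of the 32851 promoters of the table and in 23 of the 43 members that the table holds (53.5%). A match is a string of letters and not evidence of binding. The members' windows were richer in G and C, with a median of 64.8% against 52.4% over all promoters. The homeodomain core TAATTA, which reads the same on both strands, was in 0 of the 43 members' windows and in 4.8% of all promoters. The other cores searched, on both strands, were TGACAG for Meis (5 members; 15.9% of all promoters), AGGTCA for nuclear receptors (4 members; 14%), ACAATG for Sox (2 members; 10.7%) and the octamer ATGCAAAT for Pou factors (1 member; 1.6%).

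Nr2f2, also known as COUP-TFII, an orphan nuclear receptor of the caudal forebrain and of a class of interneurons, was higher in hippocampus than in cortex while its relatives Nr2f1 and Nr2f6 did not pass. It read 7.75, 7.42 and 7.43 in APLP2-KO cortex and 8.73, 8.91 and 8.64 in APLP2-KO hippocampus, and in APPsα-DM 7.50, 7.51 and 7.67 in cortex and 9.26, 8.79 and 8.98 in hippocampus. No cortex array reached a hippocampus array. The difference was 1.22 ± 0.13 in APLP2-KO (2.33-fold, adjusted p = 3.51e-05) and 1.45 ± 0.13 in APPsα-DM (2.73-fold, adjusted p = 1.01e-05). Nr2f2 had 5 further probe sets, of which 3 passed in both genotypes, with differences of 1.58 to 2.21, and the remaining 2 differed by 0.02 to 0.11 and did not pass. Nr2f1, which sets cortical area identity, differed by -0.05 in APLP2-KO (95% interval -0.21 to 0.10) and by 0.05 in APPsα-DM (-0.10 to 0.21), and Nr2f6 by -0.02 and 0.04.

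The Emx pair, homeodomain factors of the cortical primordium, moved in opposite directions. Emx1, which marks the dorsal cortical progenitors and the excitatory neurons they make, was lower in hippocampus. It read 8.23, 8.21 and 8.22 in APLP2-KO cortex and 7.64, 7.61 and 7.65 in APLP2-KO hippocampus, within 0.04 units in each group. In APPsα-DM it read 8.11, 8.11 and 7.86 in cortex and 7.51, 7.70 and 7.56 in hippocampus. The tissues were apart in both genotypes, and the differences were -0.59 ± 0.08 (1.5-fold lower, adjusted p = 0.000262) and -0.44 ± 0.08 (1.35-fold lower, adjusted p = 0.00271). A dimmer Emx1 probe set differed by -0.35 and -0.24 and did not pass (adjusted p = 0.214 and 0.428). Emx2, which the hippocampus needs to grow, read 7.49, 7.38 and 7.56 in APLP2-KO cortex and 7.71, 7.84 and 7.78 in APLP2-KO hippocampus, and in APPsα-DM 7.26, 7.40 and 7.29 in cortex and 7.65, 8.02 and 7.79 in hippocampus. Each hippocampus array was above each cortex array of its genotype. Emx2 passed in APPsα-DM (0.50 ± 0.09, 1.42-fold higher, adjusted p = 0.00329) and not in APLP2-KO (0.30 ± 0.09, adjusted p = 0.0525, or 0.0448 with the replicate number of each genotype as a block), and the test of the difference between the genotypes gave 0.20 ± 0.13 (unadjusted p = 0.148, adjusted p = 1.00). The 250 bases before both RefSeq starts, on the plus strand, are given to set the pair side by side, with E-boxes in capitals (GRCm38.p6; Emx1 at chr6:85187681-85187930 and Emx2 at chr19:59458440-59458689).
Emx1: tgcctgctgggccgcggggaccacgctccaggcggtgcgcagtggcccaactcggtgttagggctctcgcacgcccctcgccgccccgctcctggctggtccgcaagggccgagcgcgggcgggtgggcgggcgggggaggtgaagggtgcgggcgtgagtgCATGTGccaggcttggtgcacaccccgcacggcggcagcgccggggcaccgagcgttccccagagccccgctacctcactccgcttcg
Emx2: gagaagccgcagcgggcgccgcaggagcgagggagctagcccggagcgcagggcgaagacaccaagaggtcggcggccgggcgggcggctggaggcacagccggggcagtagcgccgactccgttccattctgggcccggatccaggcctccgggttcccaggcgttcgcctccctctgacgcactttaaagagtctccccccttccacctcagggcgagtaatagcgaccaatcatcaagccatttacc
G and C made up 75.6% of the Emx1 window and 67.2% of the Emx2 window, and an E-box was found in the former only.

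Among the Lhx genes, which encode LIM-homeodomain factors, Lhx2 and Lhx8 passed in both genotypes in opposite directions. Lhx2, a selector of cortical identity, read 8.98, 8.87 and 8.79 in APLP2-KO cortex and 9.15, 9.22 and 9.14 in APLP2-KO hippocampus, and 8.96, 8.83 and 8.78 in APPsα-DM cortex and 9.14, 9.19 and 9.24 in APPsα-DM hippocampus. The tissues did not overlap, but the step was small: 0.29 ± 0.07 (1.23-fold, adjusted p = 0.0170) and 0.33 ± 0.07 (1.26-fold, adjusted p = 0.00949). In APLP2-KO it did not pass without APLP2-KO cortex array 2 or 3 or APLP2-KO hippocampus array 2 (adjusted p 0.0554 to 0.0732), nor without the cortex arrays of raised choroid plexus signal (0.0791). Lhx8, which cholinergic neurons of the basal forebrain and striatum need, was dim. It read 4.66, 3.95 and 4.43 in APLP2-KO cortex and 3.58, 3.13 and 2.90 in APLP2-KO hippocampus. In APPsα-DM it read 4.22, 4.44 and 5.31 in cortex and 3.13, 3.08 and 3.25 in hippocampus. All hippocampus values were below all cortex values, with a difference of -1.14 ± 0.26 in APLP2-KO (adjusted p = 0.0107) and of -1.50 ± 0.26 in APPsα-DM (adjusted p = 0.00204). Whether the hippocampus arrays, at 2.90 to 3.58, held Lhx8 signal above background was not tested, so no fold is given. Without APLP2-KO hippocampus array 3 the adjusted p in APLP2-KO was 0.0520. Lhx6, a factor of interneurons from the medial ganglionic eminence, differed by 0.02 in APLP2-KO (95% interval -0.13 to 0.17) and 0.05 in APPsα-DM (-0.10 to 0.21). The other 4, Lhx1, Lhx3, Lhx4 and Lhx5, were dim and did not pass.

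**Figure D2:**
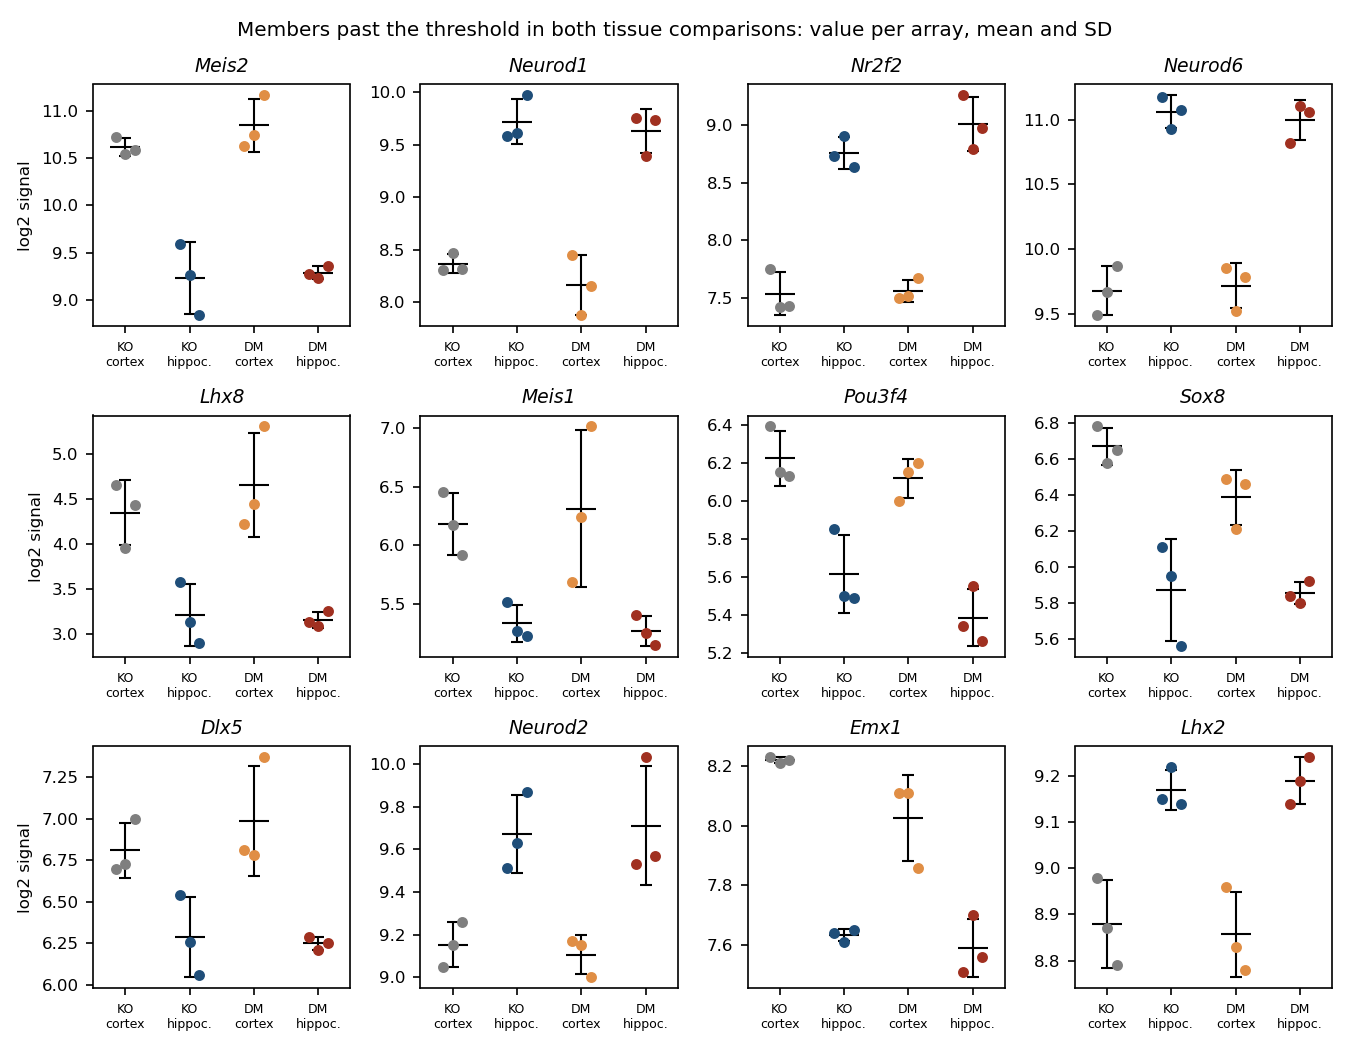
Log2 signal of the 12 members that passed the threshold in both tissue comparisons, with 1 point per array, the group mean as a bar and the SD as whiskers (n = 3 in each group; hippoc., hippocampus). Hippocampus and cortex points do not overlap within either genotype in any of the 12 panels. The 12 were chosen by that threshold on these same arrays, so the lack of overlap is no separate support. The y axes differ between panels.

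Among the 3 Meis genes, Meis1 and Meis2 were lower in hippocampus in both genotypes. Meis2, a homeodomain partner of Pbx proteins that the striatal lineage expresses strongly, read 10.72, 10.54 and 10.59 in APLP2-KO cortex and 9.59, 9.27 and 8.84 in APLP2-KO hippocampus. In APPsα-DM it read 10.63, 10.74 and 11.16 in cortex and 9.28, 9.23 and 9.36 in hippocampus. Each hippocampus array was below each cortex array. Meis2 was 2.61-fold lower in APLP2-KO hippocampus (-1.38 ± 0.17, adjusted p = 0.000126) and 2.93-fold lower in APPsα-DM hippocampus (-1.55 ± 0.17, adjusted p = 6.20e-05). Of its 3 other probe sets, 2 passed in both genotypes (-1.25 to -1.61) and the third passed in APPsα-DM (-0.90, adjusted p = 0.0414) and not in APLP2-KO (-0.81, adjusted p = 0.0598). Meis1, a close relative, read 6.45, 6.17 and 5.92 in APLP2-KO cortex and 5.52, 5.27 and 5.23 in APLP2-KO hippocampus, and 5.69, 6.24 and 7.01 in APPsα-DM cortex and 5.41, 5.26 and 5.15 in APPsα-DM hippocampus. The tissues were apart, with the widest spread in APPsα-DM cortex. The differences were -0.84 ± 0.25 (1.79-fold lower, adjusted p = 0.0460) and -1.04 ± 0.25 (2.05-fold lower, adjusted p = 0.0178). The Meis1 call in APLP2-KO did not hold when any 1 of the 6 APLP2-KO arrays was left out, nor without APPsα-DM cortex array 2 or any 1 APPsα-DM hippocampus array (adjusted p 0.0507 to 0.156). With the replicate number of each genotype as a block it had an adjusted p of 0.0518, with the choroid plexus score as a covariate 0.0845, without the cortex arrays of raised choroid plexus signal 0.0671 and with an intensity trend 0.0552. In APPsα-DM the Meis1 difference was -0.69 without APPsα-DM cortex array 3 (adjusted p = 0.0324) and did not pass without APPsα-DM hippocampus array 3 (0.0677), in the fit on only the compared groups (0.0635), with the choroid plexus score as a covariate (0.0767) or without the cortex arrays of raised choroid plexus signal (0.0541). Its 2 dimmer probe sets differed by -0.12 to 0.05, and the mean of all Meis1 probe sets by -0.30 in APLP2-KO and -0.38 in APPsα-DM. Meis3 differed by -0.13 (95% interval -0.28 to 0.03) and 0.02 (-0.14 to 0.18).

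The Dlx genes encode homeodomain factors of GABAergic neurons, and those that are not dim (Dlx2, Dlx5 and Dlx6) were lower in hippocampus in APPsα-DM. Dlx5, which lies on chromosome 6 as Dlx6 does, read 6.70, 6.73 and 7.0 in APLP2-KO cortex and 6.54, 6.26 and 6.06 in APLP2-KO hippocampus, and 6.81, 6.78 and 7.37 in APPsα-DM cortex and 6.29, 6.21 and 6.25 in APPsα-DM hippocampus. The tissues were apart in both genotypes. Dlx5 differed by -0.52 ± 0.15 (1.43-fold lower, adjusted p = 0.0457) in APLP2-KO and by -0.74 ± 0.15 (1.67-fold lower, adjusted p = 0.00788) in APPsα-DM. The APLP2-KO call of Dlx5 was lost on leaving out any 1 APLP2-KO cortex array, APLP2-KO hippocampus array 2 or 3, or any 1 APPsα-DM hippocampus array (adjusted p 0.0575 to 0.174), and with the replicate block (0.0695), the choroid plexus covariate (0.0825) or the cortex arrays of raised choroid plexus signal left out (0.145). Dlx6 differed by -0.74 ± 0.15 in APPsα-DM (1.67-fold lower, adjusted p = 0.00707) and by -0.43 ± 0.15 in APLP2-KO (adjusted p = 0.0911). Dlx2 differed by -0.61 ± 0.13 in APPsα-DM (1.53-fold lower, adjusted p = 0.00928) and by -0.33 ± 0.13 in APLP2-KO (adjusted p = 0.138), where its arrays overlapped. Neither difference between the genotypes passed (unadjusted p = 0.181 for Dlx6 and 0.156 for Dlx2, adjusted p = 1.00 for both). Dlx3, a factor of skin, teeth and placenta, and Dlx4 were dim and did not pass.

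Meis1, Meis2, Lhx8, Dlx2, Dlx5 and Dlx6, grouped with their values known, were set beside the striatal markers in these arrays. All 13 measured striatal genes were lower in hippocampus in both genotypes, by a median of -1.96 log2 units in APLP2-KO and -2.23 in APPsα-DM. APPsα-DM cortex array 3, with the highest striatal score (9.20), also held the highest cortex value of all 6 of these genes: 11.16 for Meis2, 7.01 for Meis1, 5.31 for Lhx8, 7.37 for Dlx5, 6.40 for Dlx6 and 8.06 for Dlx2. In hippocampus, APLP2-KO array 1 was highest for all 6, and its striatal score of 6.97 was within 0.01 of the highest hippocampus score. Other genes and arrays went the other way. Pou3f4, Sox8 and Emx1, also lower in hippocampus in both genotypes, did not peak in APPsα-DM cortex array 3. Pou3f4 read 6.20 there and 6.39 in APLP2-KO cortex array 1, and Sox8 6.46 and 6.78. Emx1 had its lowest cortex value there (7.86). APPsα-DM hippocampus array 1, with the highest hippocampus striatal score (6.98), read 7.07 for Dlx2, below 4 of the other 5 hippocampus arrays, and 3.13 for Lhx8. APLP2-KO cortex array 3, with the lowest cortex striatal score (8.51), had the highest APLP2-KO cortex values of Dlx5 (7.0) and Dlx2 (7.72). The mean of 12 interneuron genes was 9.40 to 9.67 in cortex and 9.20 to 9.34 in hippocampus. It was highest in APPsα-DM cortex array 3. Of the 12 interneuron genes, 4 were lower in hippocampus in both genotypes, and 1 was higher in APLP2-KO. The difference lay above 0 for 5 of the 12 in APLP2-KO and 3 in APPsα-DM. In all, 41.7% and 33.3% of the list passed, against 16.5% and 13.9% of all genes. Over all members, APPsα-DM cortex array 3 held the highest cortex value for 8 of 55 and the lowest for 14 of 55, where it held the highest for 14.7% and the lowest for 16.3% of all genes. The part of striatal or interneuron RNA in these members' tissue differences was not tested.

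**Figure D3:**
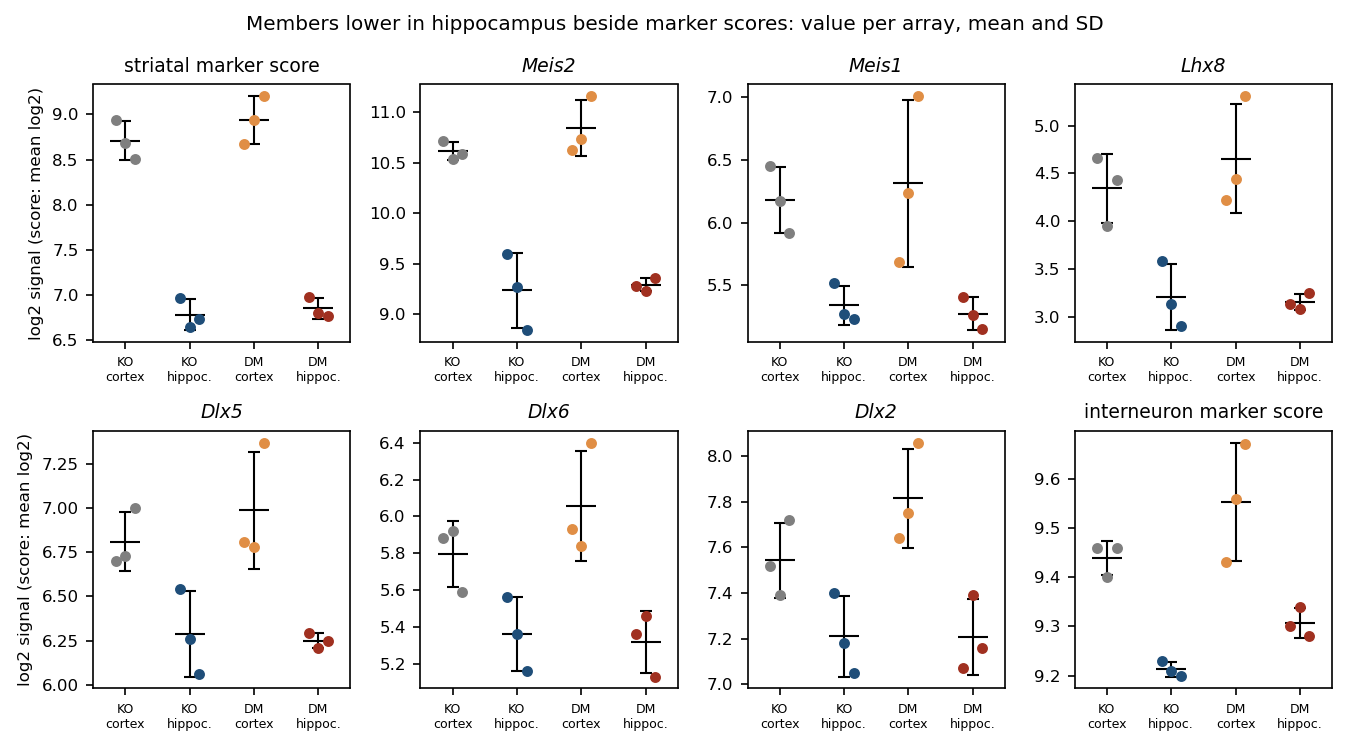
Log2 signal per array of Meis2, Meis1, Lhx8, Dlx5, Dlx6 and Dlx2 beside the striatal and the interneuron marker scores (each the mean log2 signal of the list), with group means and SD (n = 3). In cortex the highest point of each gene is APPsα-DM cortex array 3, which also has the highest striatal score, 9.20. The genes were grouped with their values known.

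Of the 10 Pou genes, 4 were lower in APLP2-KO hippocampus and 1 in APPsα-DM hippocampus, and none was higher. The lower ones are 40.0% and 10.0% of the family, against 9.70% and 7.34% of all genes. Of all genes, 6.78% and 6.59% were higher. Pou3f4, which the inner ear and developing striatum express, passed in both genotypes. It read 6.39, 6.15 and 6.13 in APLP2-KO cortex and 5.85, 5.50 and 5.49 in APLP2-KO hippocampus, and 6.00, 6.15 and 6.20 in APPsα-DM cortex and 5.34, 5.55 and 5.26 in APPsα-DM hippocampus. The tissues were apart, with differences of -0.61 ± 0.12 (1.53-fold lower, adjusted p = 0.00352) and -0.73 ± 0.12 (1.66-fold lower, adjusted p = 0.00122). Its other, dimmer probe set passed in APPsα-DM (-0.60, adjusted p = 0.0106) and not in APLP2-KO (-0.28, adjusted p = 0.221). Pou6f1 differed by -0.43 ± 0.08 in APLP2-KO (1.35-fold lower, adjusted p = 0.00424) and -0.26 ± 0.08 in APPsα-DM (adjusted p = 0.0723). Pou3f2, a factor of upper-layer cortical neurons, differed by -0.28 ± 0.08 in both genotypes. Its adjusted p was 0.0455 in APLP2-KO and 0.0513 in APPsα-DM, or 0.0429 in APPsα-DM with the replicate number of each genotype as a block. Its 2 other, dimmer probe sets showed larger differences and passed in both genotypes, -1.40 and -1.33 for the first and -0.97 and -0.81 for the second (APLP2-KO and APPsα-DM in turn), so that the size of the Pou3f2 difference depends on the probe set read. Pou2f2, dim, differed by -0.28 ± 0.08 in APLP2-KO (adjusted p = 0.0384) and -0.14 ± 0.08 in APPsα-DM (adjusted p = 0.360). The APLP2-KO call of Pou3f2 was lost without any 1 of the 6 APLP2-KO arrays, APPsα-DM cortex array 1 or APPsα-DM hippocampus array 1 or 3 (0.0560 to 0.171), and under 4 other settings (0.0571 to 0.0817). That of Pou2f2 was lost without any 1 APLP2-KO cortex array, APLP2-KO hippocampus array 1 or 2 or APPsα-DM hippocampus array 3 (0.0552 to 0.135), with the replicate block (0.0664) and under 4 other settings (0.0536 to 0.0743). Pou3f3, the upper-layer partner of Pou3f2, differed by -0.07 in both genotypes (95% intervals -0.22 to 0.08 and -0.22 to 0.09).

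The Sox genes, the largest family, had 2 calls of 17 in APLP2-KO and 1 of 17 in APPsα-DM, each lower in hippocampus. These are 11.8% and 5.88% of the family, against 16.5% and 13.9% of all genes, or 9.70% and 7.34% in that direction. Sox8, of the group that acts in glia, read 6.78, 6.58 and 6.65 in APLP2-KO cortex and 6.11, 5.95 and 5.56 in APLP2-KO hippocampus, and 6.49, 6.21 and 6.46 in APPsα-DM cortex and 5.84, 5.80 and 5.92 in APPsα-DM hippocampus. The tissues were apart in both genotypes. Sox8 differed by -0.80 ± 0.12 (1.74-fold lower, adjusted p = 0.000847) and by -0.53 ± 0.12 (1.44-fold lower, adjusted p = 0.0150). The second call was lost without APPsα-DM cortex array 1 or 3 (adjusted p 0.0644 and 0.0540) and with the choroid plexus score as a covariate (0.0757). Sox10, the oligodendrocyte factor of the same group, differed by -0.16 (95% interval -0.42 to 0.10) and -0.12 (-0.38 to 0.14), and the oligodendrocyte marker score spanned 10.07 to 10.52 over all arrays. Sox9, the astrocyte member of the group, differed by 0.19 (0.01 to 0.37) and 0.12 (-0.06 to 0.30) and did not pass. Sox5, which deep-layer cortical neurons express, differed by -0.37 ± 0.10 in APLP2-KO (1.29-fold lower, adjusted p = 0.0347) and -0.21 ± 0.10 in APPsα-DM (adjusted p = 0.266). Of the 6 other Sox5 probe sets, 2 passed in both genotypes (-0.37 to -0.56). The Sox5 call was lost without any 1 APLP2-KO cortex array or APLP2-KO hippocampus array 2 or 3 (0.0504 to 0.138), with the replicate number alone as a block (0.0517) and with the choroid plexus covariate (0.0663). Sox2, the stem cell and glial factor, differed by 0.26 (0.01 to 0.51) and 0.17 (-0.08 to 0.42). Sox11, a factor of immature neurons, differed by 0.27 and 0.28 (adjusted p = 0.0859 and 0.0782), with hippocampus arrays above cortex arrays in both genotypes. Of its 5 other probe sets, 1 passed in APPsα-DM (0.40, adjusted p = 0.0336) and none in APLP2-KO. Sox6, of migrating interneurons, differed by -0.12 and -0.18 (adjusted p = 0.377 and 0.169).

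None of the 4 Zic genes passed in either genotype on the probe sets read, and Zic1 spread widely within groups (SD 0.30 to 0.88). The SD within groups was 0.10 to 0.33 for Zic2, 0.07 to 0.28 for Zic4 and 0.10 to 0.37 for Zic5. Zic1, a factor of the dorsal midline and cerebellum, read 8.54, 7.62 and 9.28 in APLP2-KO cortex, 8.32, 7.72 and 8.90 in APLP2-KO hippocampus, 8.27, 7.93 and 8.53 in APPsα-DM cortex and 9.03, 7.84 and 7.30 in APPsα-DM hippocampus. The arrays of a group were as much as 1 unit or more apart except in APPsα-DM cortex, and the groups overlapped throughout. The tissue difference was -0.17 ± 0.46 in APLP2-KO (95% interval -1.17 to 0.83) and -0.19 ± 0.46 in APPsα-DM (-1.19 to 0.81), so that a fall of 1 log2 unit in hippocampus lay inside both intervals and a rise of 1 unit outside them. Zic5 differed by 0.34 ± 0.18 and 0.50 ± 0.18 (adjusted p = 0.295 and 0.120). A dimmer Zic5 probe set passed in APPsα-DM (0.74, adjusted p = 0.0290) and not in APLP2-KO (0.38, adjusted p = 0.266), so that this result depends on the probe set read. APPsα-DM hippocampus array 1 was the highest hippocampus array for all 4 Zic genes, for Lhx1 and for Neurod4, among 12 of the 55 members for which it was highest (21.8%, against 19.5% of all genes). It also had the highest leptomeningeal score (8.98) and choroid plexus score (8.72). APLP2-KO cortex array 3 (choroid plexus score 7.16) had the highest cortex values of Zic1 (9.28), Zic4 (5.82) and Zic5 (6.06). APLP2-KO hippocampus array 3 (7.59) had the highest APLP2-KO hippocampus values of Zic1 (8.90) and Zic4 (5.76) and the lowest of Zic5 (5.98). Other arrays went the other way. APPsα-DM hippocampus array 3, with the next highest choroid plexus score (8.33), had the lowest hippocampus values of Zic1 (7.30), Zic4 (5.25) and Zic5 (5.89). APPsα-DM cortex array 2 (choroid plexus score 7.66) read 7.93 for Zic1. The part of meningeal or choroid plexus RNA in these values was not tested.

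**Figure D4:**
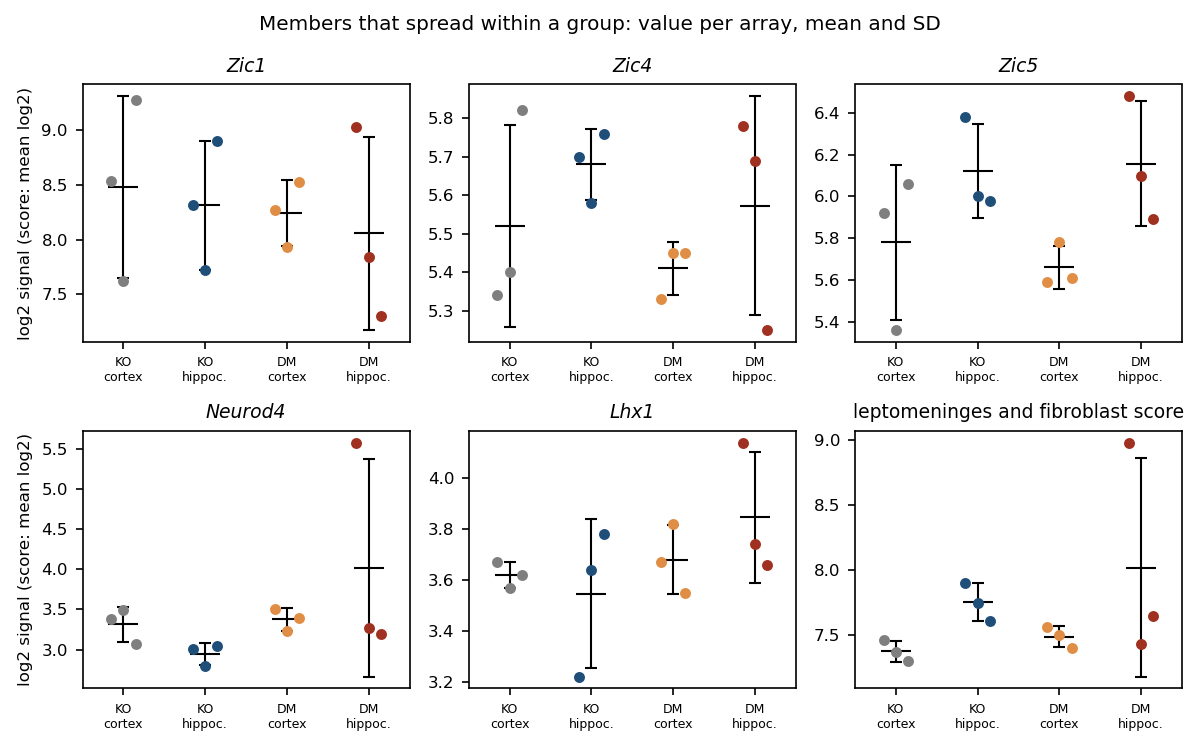
Log2 signal per array of Zic1, Zic4, Zic5, Neurod4 and Lhx1 beside the leptomeninges and fibroblast marker score (mean log2 signal of 10 genes), with group means and SD (n = 3). APPsα-DM hippocampus array 1 is the highest hippocampus point in all 6 panels, and Neurod4 reads 5.58 there and at most 3.51 in the other 11 arrays.

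The genotype comparison asks what follows when membrane-bound APP is replaced by APPsα in mice without APLP2. No member passed in cortex or in hippocampus (0 of 55 in each; limma), where 0.0110% of all genes passed in each tissue. At an unadjusted p under 0.05, 2 members were found in cortex (4.57% of all genes) and 1 in hippocampus (4.02% of all genes). The 95% interval of the genotype difference stayed within 1 log2 unit of 0 for 53 of 55 members in cortex and 53 in hippocampus, the exceptions being Neurod4 and Zic1 in both. It stayed within 0.5 log2 units for 44 members in cortex and 47 in hippocampus. The median size of the difference was 0.08 in cortex and 0.06 in hippocampus, against 0.06 for all genes in each tissue.

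In cortex the smallest p values among the probe sets read belonged to Emx1 and Sox8. A dimmer Pou2f2 probe set that was not read differed by -0.24 ± 0.08 (unadjusted p = 0.00997), with the genotypes apart, and did not pass. Emx1 was 8.21 to 8.23 in APLP2-KO cortex and 8.11, 8.11 and 7.86 in APPsα-DM cortex, without overlap, a difference of -0.20 ± 0.08 (unadjusted p = 0.0276, adjusted p = 1.00). Sox8 was 6.58 to 6.78 in APLP2-KO cortex and 6.21 to 6.49 in APPsα-DM cortex, also without overlap, a difference of -0.28 ± 0.12 (unadjusted p = 0.0406, adjusted p = 1.00). APPsα-DM cortex array 3, with the highest striatal score, was the lowest for Emx1, and without it the difference was -0.11. Dlx2 (0.27 ± 0.13, unadjusted p = 0.0593) and Sox14 (-0.17 ± 0.09, unadjusted p = 0.0865) came next, both with overlapping arrays. Dlx2 read 7.52, 7.39 and 7.72 in APLP2-KO cortex and 7.64, 7.75 and 8.06 in APPsα-DM cortex. Sox14 read 5.66, 5.72 and 5.73 in APLP2-KO cortex and 5.51, 5.68 and 5.42 in APPsα-DM cortex. Of the 13 striatal genes, 12 were on the side of APPsα-DM in cortex, by a median of 0.22, and none passed. With the striatal score of each array in the fit, Emx1 differed by -0.14, Sox8 by -0.33, Dlx2 by 0.20 and Sox14 by -0.10, and none passed.

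In hippocampus the smallest p among the probe sets read belonged to Neurod4, and it rested on a single array. Neurod4 read 3.01, 2.79 and 3.04 in APLP2-KO hippocampus and 5.58, 3.27 and 3.20 in APPsα-DM hippocampus. The groups did not overlap, but 2 of the 3 APPsα-DM values were within the range of the cortex arrays (3.07 to 3.51). The difference was 1.07 ± 0.46 (unadjusted p = 0.0386, adjusted p = 1.00), and 0.28 without APPsα-DM hippocampus array 1. Lhx1 (0.30 ± 0.15, unadjusted p = 0.0609), Nr2f2 (0.25 ± 0.13, unadjusted p = 0.0674) and Pou3f4 (-0.23 ± 0.12, unadjusted p = 0.0715) followed. On these probe sets the arrays of the genotypes overlapped for each. Lhx1 read 3.22, 3.64 and 3.78 in APLP2-KO hippocampus and 4.14, 3.74 and 3.66 in APPsα-DM hippocampus, where the highest value was again array 1. The values of Nr2f2 and Pou3f4 are given with the tissue comparison. A dimmer Nr2f2 probe set differed more, by 0.49 ± 0.14 (unadjusted p = 0.00488), with the genotypes apart, and did not pass. The genotypes were also apart on another (0.21, unadjusted p = 0.104), and the rest differed by -0.12 to 0.19. The other Lhx1 probe set differed by -0.03 and that of Pou3f4 by -0.12.

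**Figure D5:**
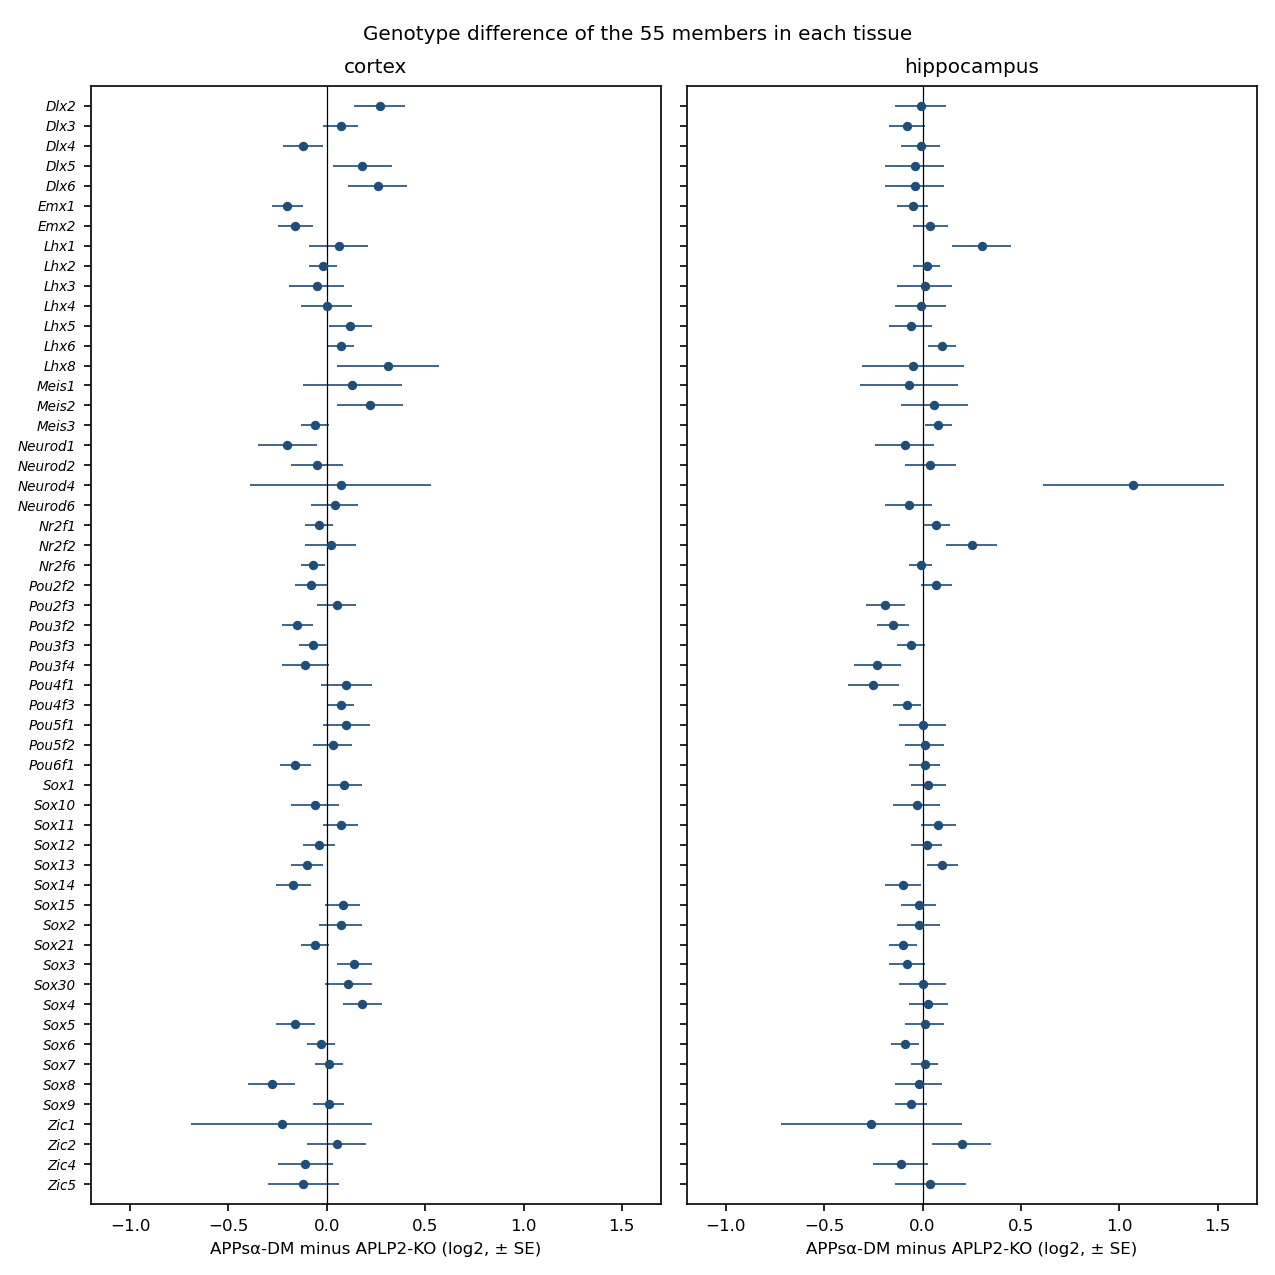
Genotype difference (APPsα-DM minus APLP2-KO, log2) of each of the 55 members in cortex (left) and hippocampus (right), with the SE from limma, in order of family. None passed the threshold, and the point farthest from 0 is Neurod4 in hippocampus at 1.07 ± 0.46.

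The genotype effect was also compared between the tissues, which equals comparing the tissue difference between the genotypes. No member passed (0 of 55; limma), as 0% of all genes did, and 0 members had an unadjusted p under 0.05, where 3.41% of all genes had. The 95% interval stayed within 1 log2 unit of 0 for 52 of 55 members and within 0.5 for 38. Dimmer probe sets that were not read gave 0.36 ± 0.11 for Pou2f2 (unadjusted p = 0.00740) and 0.63 ± 0.20 for Nr2f2 (unadjusted p = 0.00877). Neither passed. Among the probe sets read, the smallest p values were those of Sox13, Pou4f1 and Sox3. Sox13 read 6.75, 6.82 and 6.84 in APLP2-KO cortex, 6.63, 6.64 and 6.73 in APLP2-KO hippocampus, 6.71, 6.82 and 6.58 in APPsα-DM cortex and 6.84, 6.79 and 6.67 in APPsα-DM hippocampus, a difference of effects of 0.20 ± 0.11 (unadjusted p = 0.0870). Pou4f1, a factor of sensory neurons and the medial habenula, was dim at 2.86 to 3.52 over all arrays, with a difference of effects of -0.35 ± 0.19 (unadjusted p = 0.0873). Sox3, also dim, lay between 5.34 and 5.82, with a difference of effects of -0.22 ± 0.12 (unadjusted p = 0.0985). For the members that passed in 1 genotype only, no difference between the genotypes was therefore shown.

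Some partners of these factors also differed between the tissues. Of 19 measured cofactors and binding partners, 5 were higher and 4 lower in APLP2-KO hippocampus, and 5 higher and 3 lower in APPsα-DM hippocampus, 8 of them the same in both. These are 47.4% and 42.1% of the list, against 16.5% and 13.9% of all genes, and 10 of the 19 did not pass in APLP2-KO and 11 in APPsα-DM. Lmo1, a LIM-only protein that competes for the cofactor of Lhx factors, differed most (1.66 ± 0.09 in APLP2-KO and 1.58 ± 0.09 in APPsα-DM). Its relative Lmo4 was lower in hippocampus (-0.90 ± 0.12 and -1.07 ± 0.12), Lmo3 higher (0.57 and 0.36) and Lmo2 lower (-0.30 and -0.41). Pbx3, of the family that pairs with Meis proteins, was lower (-0.88 ± 0.25 and -1.33 ± 0.25). Tcf4 and Tcf12, the E-proteins that pair with Neurod factors, were higher (0.60 and 0.62 for Tcf4, 0.28 and 0.26 for Tcf12). Ldb1 and Ldb2, the common cofactors of Lhx proteins, did not pass.

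Of 27 patterning signals and receptors, 4 were higher and 2 lower in APLP2-KO hippocampus, and 6 higher and 2 lower in APPsα-DM hippocampus (22.2% and 29.6% of the list, against 16.5% and 13.9% of all genes). The 6 that passed in both were Rarb, a retinoic acid receptor that also stands on the striatal list (-1.83 ± 0.13 and -2.19 ± 0.13), Fgfr1 (0.82 and 1.04), Wnt5a (0.89 and 0.81), Shh (-0.79 and -0.55), Chrd, which binds BMP ligands (0.53 and 0.72), and Smo, the transducer of the Shh signal (0.53 in both). Of 44 other forebrain transcription factors, 5 were higher and 11 lower in APLP2-KO hippocampus, and 4 higher and 11 lower in APPsα-DM hippocampus, with 15 the same in both. Of the list, 36.4% and 34.1% passed, against 16.5% and 13.9% of all genes. Foxp2 had the largest difference (-2.90 ± 0.23 and -2.73 ± 0.23), followed in size, among those that passed in both, by Zbtb20 of hippocampal pyramidal cells (1.38 and 1.41), Cux2 of upper cortical layers (-1.49 and -1.14), Tbr1 of deep layers (-1.30 and -1.25), Prox1 of dentate granule cells (1.17 and 1.22) and Foxp1 (-1.10 and -1.28). Zbtb20, Cux2, Tbr1, Prox1, Isl1, Six3 and Rorb also stand on the marker lists used above. No gene of these 3 lists passed between the genotypes in either tissue.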

How the data were processed

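RNA of 12 tissue samples was measured on 1 Affymetrix array each, 3 per genotype and tissue. The deposited values are log2 signals per probe set, which the authors made with RMA in the affy package per the submitters' processing notes (with no version given there). The method corrects background, quantile-normalizes and summarises probes together, so the values are relative within these 12 arrays. Array medians were 5.86 to 5.91, and replicates correlated at 0.9947 to 0.9972.

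Of 45101 probe sets, 64 controls were left out and 45037 tested. The platform annotation gave 1 gene symbol to 34945 of them, several to 932 and none to 9160, and only the first kind was named. All 12 arrays entered 1 fit of 4 group means in limma 3.58.1 (R 4.3.3, lmFit and eBayes, 8 residual and 4.25 prior degrees of freedom), with Benjamini-Hochberg adjustment over all tested probe sets and a threshold of 0.05. Errors beside ± are standard errors from that fit unless called SD. Cortex and hippocampus were treated as independent samples. The labels' replicate numbers are not tied to mice, and the main fit assumed no pairing. Deviations from the group means of same-numbered APLP2-KO cortex and hippocampus arrays correlated at 0.11 to 0.16 (other numbers -0.14 to 0.02). In APPsα-DM the same-number correlations were 0.02 to 0.08 (other numbers -0.06 to 0.04). The fit with genotype and number as a block is therefore given beside the tissue calls it changed. The median standard error was 0.0938 for a comparison of 2 groups and 0.133 for the difference of effects, and the number of arrays limits the precision. Tested on simulated data for the APLP2-KO tissue comparison (45037 probe sets), the fit recovered 48% of differences of 0.5, 96% of 1 and all of those of 1.5 and 2, with 8 false calls.

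Marker scores are means of log2 signal over fixed lists. The members, the 12 marker lists and the 3 pathway lists were chosen with earlier results of these data known. Values in every array are given for members that passed in both tissue comparisons, for the 4 smallest p values in each genotype comparison and for the 3 smallest in the difference of effects. For members named because they passed, arrays without overlap largely follow from that choice and are no separate support. The share of all genes without overlap was not counted. Other members that passed are given by their difference, and up to 6 genes of each pathway list that passed in both tissue comparisons by size. Further uncalled members, Dlx and Emx values, Zic1 and pathway genes beyond these were chosen after their values were seen. Promoter sequences are RefSeq's (GRCm38.p6), which held 43 of the 55 members. Alternatives were replicate blocks, leaving out each array or dim probe sets, centring, a second quantile normalization, an intensity trend, the mean of a gene's probe sets, separate fits, choroid plexus or striatal scores as covariates and a minimum difference.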

Additional observations from a re-analysis of the deposited data

How the results depend on the processing

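No result changed direction: over 49 results of single genes and up to 25 settings, 1049 values kept their side of the threshold, 82 lost it, 25 gained it and 0 reversed. Meis2, Neurod1, Neurod6, Nr2f2 and Pou3f4 passed in both genotypes under each alternative in which they were tested. The striatal score was a covariate only for the cortex genotype comparison and the difference of effects, so no tissue call was tested with it. Leaving out each array in turn gave 9 to 17 members called in APLP2-KO and 14 to 17 in APPsα-DM, and 0 in each genotype comparison and in the difference of effects. A fit on fewer arrays has fewer degrees of freedom. The remaining alternatives gave 11 to 18 in APLP2-KO and 13 to 19 in APPsα-DM, and again 0 for genotype. With a replicate block the counts were 17 (random), 12 (number fixed) and 14 (genotype and number fixed) in APLP2-KO, and 16, 17 and 16 in APPsα-DM. With genotype and number fixed, Meis1, Dlx5 and Pou2f2 lost and Emx2 gained a call in APLP2-KO, and no other named APLP2-KO tissue call changed. In APPsα-DM, where each cortex array also correlated best with the hippocampus array of its own number, Pou3f2 gained one (adjusted p = 0.0429). Between genotypes, same-numbered arrays correlated at -0.25 to -0.08 in cortex and 0.03 to 0.21 in hippocampus, and no block changed a genotype call.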
